A study of Saccharomyces cerevisiae with 6 samples.

Results

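The G1 cyclin genes CLN1, CLN2, CLN3, PCL1 and PCL2 and the genes for the transcription factors SBF and MBF and their inhibitors (SWI4, SWI6, MBP1, WHI5 and NRM1) were followed in the R256C strain and in WT. These 10 genes were taken by name from the 7126 gene rows of the count table, and all 10 were among the 6337 genes that passed the filter on low counts. R256C is a strain of the budding yeast Saccharomyces cerevisiae whose actin carries cysteine in place of arginine, and WT is the wild-type strain; both were labelled as S288C and received no treatment. Each strain gave 3 libraries, labelled as biological replicates, from cultures diluted to an optical density (OD660) of 0.3 and collected at 0.9 during growth in YPD, a rich glucose medium, at 30 °C. The labels give neither how the allele was introduced nor how many isolates of each genotype were used, so the substitution and any other difference between the strains cannot be told apart. Neither cell cycle stage nor growth rate is given in the labels, and the cultures are not described as synchronised.

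In budding yeast, the decision to enter a new division cycle, called Start, is taken in late G1. The cyclin Cln3 with the kinase Cdc28 acts upstream, the inhibitor Whi5 holds back the factor SBF (Swi4 with Swi6), and release of SBF switches on CLN1, CLN2, PCL1 and PCL2, whose products drive budding and further activation. MBF (Mbp1 with Swi6) controls many genes of DNA replication and repair in the same interval, and Nrm1 returns these genes to repression as cells leave G1. SBF is known for binding the SCB element and MBF for binding the MCB element, while the early cell cycle box (ECB), bound by Mcm1, directs expression of CLN3, SWI4 and some replication genes at the end of mitosis.

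Reads in genes numbered 8967232 to 11935735 per library in R256C and 10750023 to 16905818 in WT, of which 14545 to 19958 and 16357 to 22100 fell in the 10 genes. The lowest count of any of the 10 genes in a library was 331, where counting error alone is 5.5% of the value. WT replicate 2 stood apart from the other WT libraries: the chi-square per degree of freedom of its gene counts was 152.4 against WT replicate 1 and 78.5 against WT replicate 3, while WT replicates 1 and 3 differed by 14.5 and pairs of R256C libraries by 7.03 to 14.04. Pairs across the strains gave 119 to 237, so the 152.4 between WT replicates 1 and 2 lay within the range found between strains. ACT1, the actin gene, was at 1354 to 1404 CPM in R256C and 1512 to 2094 CPM in WT (CPM, counts scaled to a library size adjusted by TMM factors), and since a count per gene says nothing of the codon, ACT1 does not check the labels. Markers of the MATa mating type summed to 3891 to 4225 CPM in R256C and 3762 to 4103 CPM in WT, and those of MATalpha to 116 to 126 CPM and 104 to 116 CPM, with none of either list at 0. Meiosis markers summed to 178 to 198 CPM in R256C and 111 to 159 CPM in WT and haploid-specific markers to 1287 to 1404 CPM and 1560 to 1709 CPM; their part in the results below was not tested.

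Of the 10 genes, 3 rose in R256C (CLN3, CLN1 and PCL1), 3 fell (SWI4, NRM1 and PCL2) and 4 did not pass the test (CLN2, SWI6, MBP1 and WHI5), by edgeR's quasi-likelihood test at an adjusted p under 0.05. Across all genes tested, 21.2% rose and 21.4% fell, and 42.7% were called in either direction, against which the 6 of 10 called here are to be read. Without R256C replicate 2, R256C replicate 3 or WT replicate 3, 1 of the 10 rose, namely CLN3. Over all genes tested, 876 of 6391 rose and 861 fell without WT replicate 3. Without R256C replicate 2, 948 of 6374 rose and 858 fell, and without R256C replicate 3, 918 of 6374 rose and 822 fell. With all 6 libraries, 1345 of 6337 rose and 1358 fell. The median log2 fold change of the 10 genes was -0.08, against -0.01 over all genes. The 3 R256C libraries did not overlap the 3 WT libraries for 8 of the 10 genes, 4 of them higher and 4 lower, and this held for 54.9% of all genes (27.7% higher and 27.3% lower). SWI4 had the largest change of the 10: 0.947% of tested genes had a lower log2 fold change. CLN3 lay at the other end, with 90.5% of tested genes below it. In bulk cultures that are not described as synchronised, a different share of cells in G1 and a different amount of an mRNA per cell cannot be told apart.

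**Figure D1:**
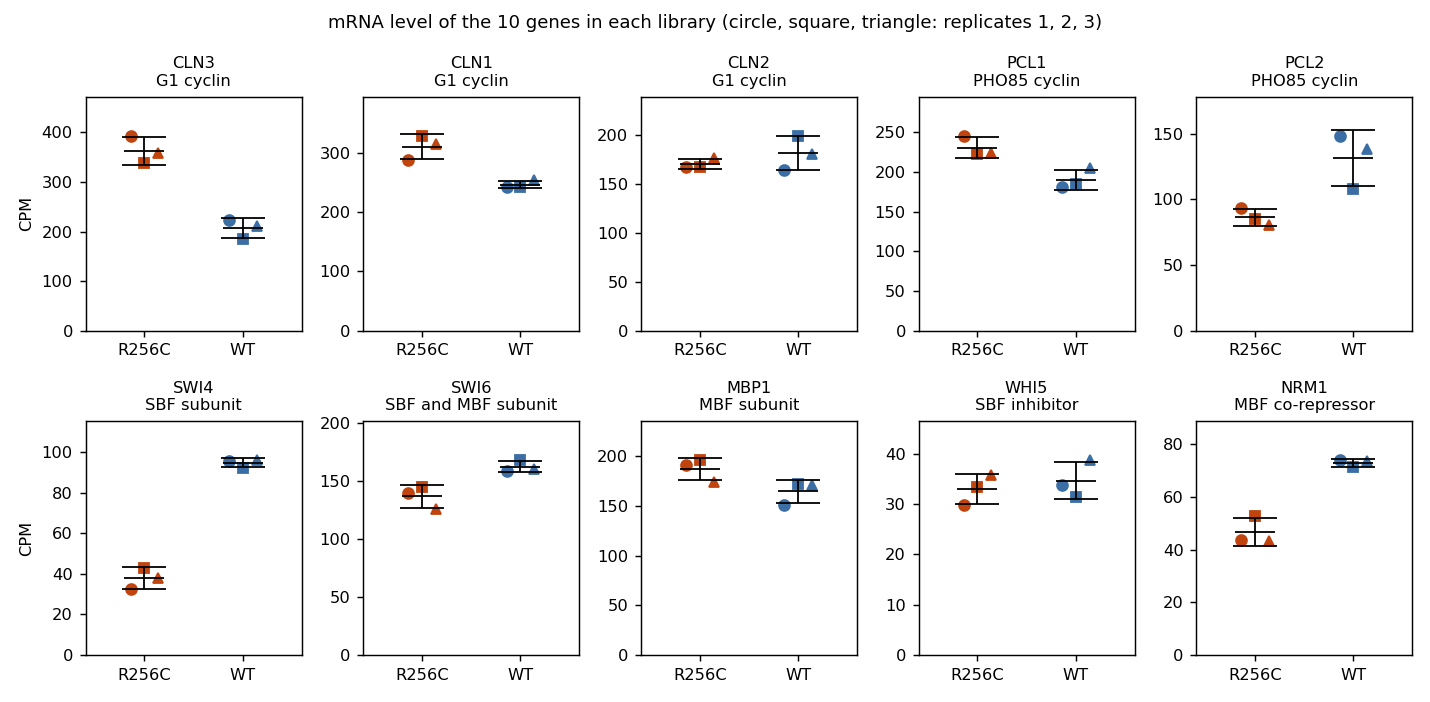
CPM of each of the 10 genes (vertical axes, each starting at 0) in every library, R256C in orange and WT in blue; shapes are replicates 1, 2 and 3, and black lines are the mean ± SD of 3 libraries. SWI4 lies at 32.4 to 43.2 CPM in R256C and 92.5 to 96.3 CPM in WT, while CLN2 and WHI5 overlap between the strains.

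SBF, MBF and Mcm1 are known to act through elements before their target genes, so the promoter stretch with most matches to the element letters is printed for the 5 genes that had any. The SCB was searched as CNCGAAA, the MCB as ACGCGT and the ECB by its core consensus, each on both strands of the R64 reference genome. In the 600 bases before the start codon, SCB letters were found for 5 of the 10 genes, against 24.7% of 5999 protein-coding genes. MCB letters were found for 1 (SWI4, against 6.33% of genes) and ECB letters for 2 (PCL1 and SWI4, against 1.08%). CLN3, SWI6, MBP1, WHI5 and NRM1 held none of these letters there, and none of the 10 genes held them in the narrower window of 250 bases before to 50 after the start. These are exact matches of letters, so an element with other letters or further upstream would be missed, and no binding was measured. The stretches are 120 bases long and read 5′ to 3′ on the strand of the gene, with capitals for SCB, MCB and ECB letters on either strand. They lie at chrXIII:662144-662263 (CLN1, plus strand), chrXVI:67095-67214 (CLN2, minus), chrXIV:87527-87646 (PCL1, plus), chrIV:234489-234608 (PCL2, plus) and chrV:386290-386409 (SWI4, minus).
CLN1: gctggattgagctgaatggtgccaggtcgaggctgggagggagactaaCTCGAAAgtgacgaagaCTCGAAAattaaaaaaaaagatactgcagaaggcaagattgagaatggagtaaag
CLN2: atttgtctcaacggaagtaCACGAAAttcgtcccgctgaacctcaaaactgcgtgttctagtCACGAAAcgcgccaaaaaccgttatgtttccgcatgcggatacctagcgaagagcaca
PCL1: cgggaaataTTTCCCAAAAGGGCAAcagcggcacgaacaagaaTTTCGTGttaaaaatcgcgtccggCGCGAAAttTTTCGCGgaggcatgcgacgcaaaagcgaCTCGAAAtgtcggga
PCL2: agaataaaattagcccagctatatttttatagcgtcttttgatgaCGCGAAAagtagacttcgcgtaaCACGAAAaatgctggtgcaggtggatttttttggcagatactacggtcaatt
SWI4: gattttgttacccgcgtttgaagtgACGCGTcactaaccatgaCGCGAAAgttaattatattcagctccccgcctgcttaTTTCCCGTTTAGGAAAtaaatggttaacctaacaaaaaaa
The CLN1, CLN2 and PCL2 stretches each hold 2 SCB matches, and that of PCL1 holds 4 and an ECB match. In the SWI4 stretch, 1 MCB, 1 SCB and 1 ECB match follow each other, and another SCB match lies nearer the gene.

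**Figure D2:**
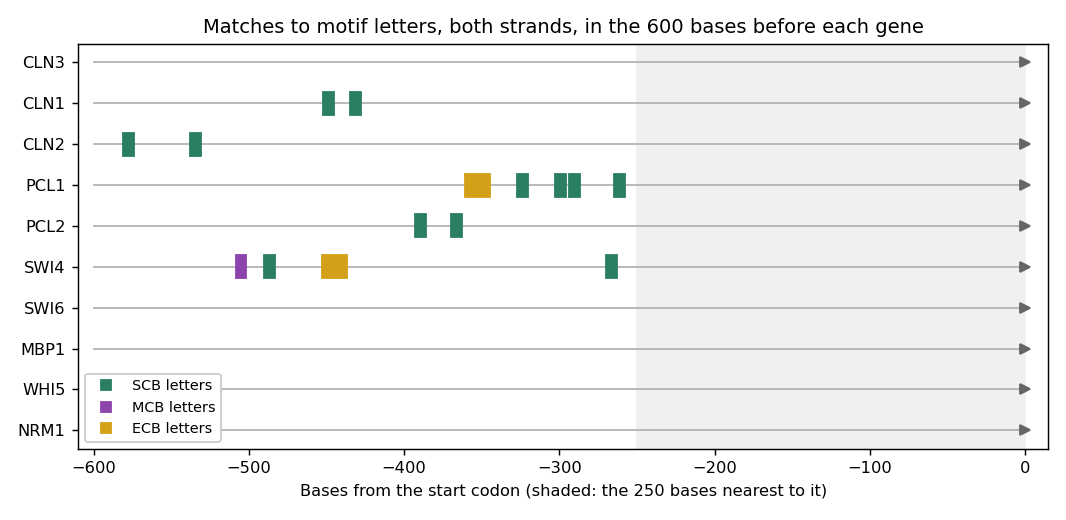
Matches to SCB (green), MCB (purple) and ECB (yellow) letters on both strands in the 600 bases before the start codon of each gene; the horizontal axis is the distance from the start codon in bases. All matches lie further than 250 bases from the start, and SWI4 is the only one of the 10 genes with all 3 kinds.

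CLN3 (YAL040C, chromosome I, 65778 to 67520, R64), the most upstream G1 cyclin gene, was at 393.6, 337.5 and 357.6 CPM in R256C replicates 1, 2 and 3 and at 223.9, 184.4 and 211.9 CPM in WT replicates 1, 2 and 3. Every R256C library was above every WT library, and WT replicate 2 was the lowest of the 6. The log2 fold change was 0.81 (SE 0.11), a 1.76-fold rise (edgeR adjusted p = 0.000765). Without WT replicate 2 it was 0.73 (adjusted p = 6.7e-06).

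CLN1 (YMR199W, chromosome XIII, 662644 to 664284), a cyclin gene switched on by SBF in late G1, was at 286.8, 328.6 and 314.3 CPM in R256C and at 242.4, 242.1 and 253.5 CPM in WT. The lowest R256C library exceeded the highest WT library. The rise was 1.26-fold (log2 fold change 0.33, SE 0.09, edgeR adjusted p = 0.0207). It did not pass without R256C replicate 2 (adjusted p = 0.0764), R256C replicate 3 (0.0838) or WT replicate 3 (0.0648), where the log2 fold change was 0.29, 0.32 and 0.35. CLN2 (YPL256C, chromosome XVI, 64977 to 66614), the closest relative of CLN1 and likewise an SBF target, was at 166.8, 167.5 and 176.1 CPM in R256C and at 164.5, 199.1 and 180.2 CPM in WT. The strains overlapped, with the highest value in WT replicate 2. At -0.09 on the log2 scale (SE 0.10), the difference did not pass (adjusted p = 0.468); with scaling by library totals alone its sign was positive (0.0095).

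PCL1 and PCL2 encode cyclins of the kinase Pho85 that act in late G1 on budding and polarised growth, and they moved in opposite directions. PCL1 (YNL289W, chromosome XIV, 87897 to 88736) was at 246.0, 222.5 and 223.9 CPM in R256C and at 181.4, 184.9 and 205.0 CPM in WT. The R256C libraries lay above the WT libraries by a small margin. The rise was 1.21-fold (log2 fold change 0.28, SE 0.09, edgeR adjusted p = 0.0408), near the threshold. It did not pass when R256C replicate 1 (adjusted p = 0.138), 2 (0.0729) or 3 (0.0959) or WT replicate 1 (0.101) or 3 (0.0615) was left out. PCL2 (YDL127W, chromosome IV, 234927 to 235853) was at 93.0, 84.9 and 80.5 CPM in R256C and at 148.4, 107.4 and 138.5 CPM in WT. All R256C libraries lay below the WT libraries, which varied more than for any other of the 10 genes (coefficient of variation 16.3%), with WT replicate 2 the lowest of them. PCL2 fell 1.52-fold (log2 fold change -0.61, SE 0.13, edgeR adjusted p = 0.00646). Without WT replicate 2 the log2 fold change was -0.74 (adjusted p = 4.0e-06).

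SWI4 (YER111C, chromosome V, 382595 to 385876), which encodes the DNA-binding subunit of SBF, was at 32.4, 43.2 and 38.1 CPM in R256C and at 96.0, 92.5 and 96.3 CPM in WT. The highest R256C library lay far below the lowest WT library, and the 3 WT libraries were within a coefficient of variation of 2.21%. SWI4 fell 2.51-fold (log2 fold change -1.33, SE 0.12, edgeR adjusted p = 9.39e-05). It was the only one of the 10 genes to fall by at least 2-fold, as did 2.82% of all tested genes. SWI4 is the longest of the 10 genes (3282 bp), and with offsets for coding length the log2 fold change was -1.11 (adjusted p = 0.00016).

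SWI6 (YLR182W, chromosome XII, 517940 to 520351), whose product is shared by SBF and MBF, was at 140.1, 144.9 and 126.0 CPM in R256C and at 159.2, 168.4 and 160.3 CPM in WT. All R256C libraries were below the WT libraries, and the log2 fold change was -0.25 (SE 0.09). Its edgeR adjusted p of 0.0500155 was just above the threshold. SWI6 passed with DESeq2 (0.0380), DESeq2 size factors (0.0469), no filter (0.04996) and without WT replicate 2 (0.0313). It did not pass in any other alternative run. Among these were limma-voom (adjusted p = 0.0508), the replicate block (0.0726), coding length offsets (0.147) and library totals alone (0.239). MBP1 (YDL056W, chromosome IV, 352877 to 355378), the DNA-binding subunit of MBF, was at 191.0, 196.4 and 174.7 CPM in R256C and at 151.0, 171.7 and 171.4 CPM in WT. The libraries of the strains were close but did not overlap. The log2 fold change was 0.19 (SE 0.09, edgeR adjusted p = 0.142), and it passed without WT replicate 2 (0.22, adjusted p = 0.0445) and with library totals alone (0.28, adjusted p = 0.0469).

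WHI5 (YOR083W, chromosome XV, 479533 to 480420), the inhibitor of SBF, was at 29.8, 33.4 and 35.7 CPM in R256C and at 33.7, 31.5 and 38.8 CPM in WT. The strains overlapped, and the log2 fold change of -0.07 (SE 0.12) did not pass edgeR's test (adjusted p = 0.659). Its sign was positive with library totals alone (0.022) and without WT replicate 3 (0.016). A row named YOR082C, which the annotation used here does not hold, had at most 10 reads in any library; whether it overlaps WHI5 was not tested. NRM1 (YNR009W, chromosome XIV, 642690 to 643439), the MBF co-repressor gene, was at 43.7, 52.8 and 43.4 CPM in R256C and at 74.1, 71.4 and 73.6 CPM in WT. Every R256C library was below every WT library. NRM1 fell 1.56-fold (log2 fold change -0.65, SE 0.10, edgeR adjusted p = 0.00168).

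**Figure D3:**
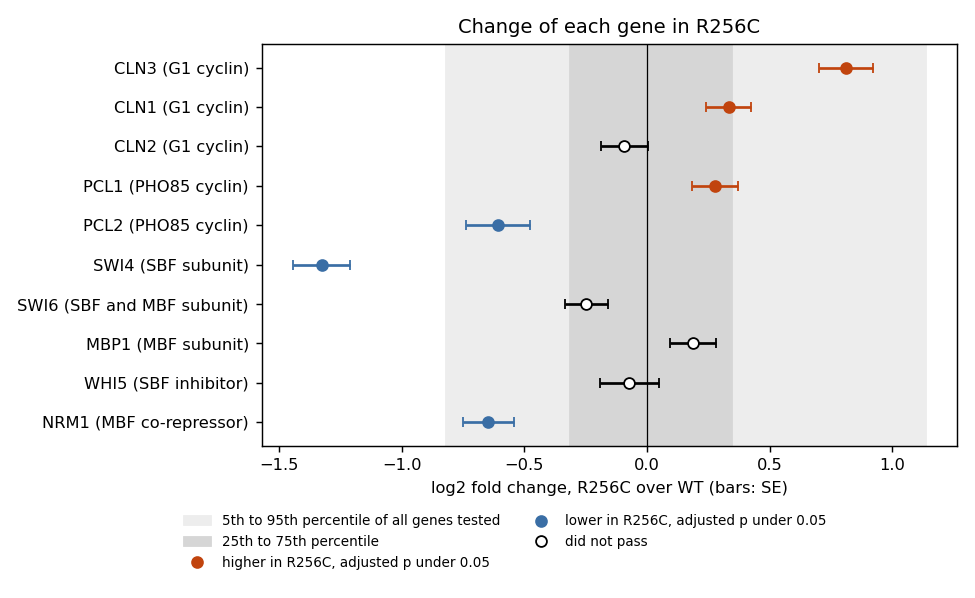
Log2 fold change of R256C over WT with its SE for each gene, with filled points for genes past edgeR's adjusted p of 0.05 and grey bands for the spread of all genes tested. SWI4 lies at -1.33 and CLN3 at 0.81, while CLN2 (-0.09) and WHI5 (-0.07) lie near 0.

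Set per length, as CPM per coding kilobase, the mean levels of the 10 mRNAs came in a different order in each strain. Every pair of genes that changed places had overlapping libraries in R256C or in WT, so no change of order was resolved. In R256C it was PCL1 (275 ± 15.7), CLN3 (208 ± 16.3), CLN1 (189 ± 12.9), CLN2 (104 ± 3.16), PCL2 (93.0 ± 6.84), MBP1 (74.9 ± 4.52), NRM1 (62.2 ± 7.14), SWI6 (56.8 ± 4.07), WHI5 (37.2 ± 3.34) and SWI4 (11.5 ± 1.64; SD, n = 3 each). In WT it was PCL1 (227 ± 15.2), CLN1 (149.9 ± 3.95), PCL2 (142 ± 23.1), CLN3 (119 ± 11.6), CLN2 (111 ± 10.6), NRM1 (97.3 ± 1.94), SWI6 (67.4 ± 2.08), MBP1 (65.8 ± 4.73), WHI5 (39.1 ± 4.21) and SWI4 (28.9 ± 0.639). PCL1 was the most abundant and SWI4 the least in both strains. CLN3 was second in R256C, its libraries overlapping those of CLN1. In R256C the neighbours MBP1 and NRM1, and NRM1 and SWI6, also overlapped. In WT the libraries of CLN1, PCL2, CLN3 and CLN2 overlapped from each to the next, as did SWI6 and MBP1, so those places in the order are not resolved.

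Ratios of reads per coding kilobase within a library do not depend on the scaling between libraries, and 8 were compared by two-sided exact permutation tests over libraries. With 3 libraries against 3 the smallest p that the exact test can give is 0.1, so none could pass 0.05. All 8 gave an exact p of 0.1 (0.1 after Benjamini-Hochberg adjustment over the 8), with no overlap between the strains. Of single genes, 54.9% did not overlap, and the share over other gene pairs was not computed. Several ratios share a gene, so the 8 are not independent. They are built from the same counts as the changes of single genes above, where 8 of the 10 genes did not overlap. On the log2 scale, SWI4 to MBP1 follows from SWI4 to SWI6 and MBP1 to SWI6. SWI4 to MBP1, the DNA-binding subunits of SBF and MBF, was 0.129, 0.168 and 0.166 in R256C and 0.485, 0.411 and 0.428 in WT, a difference in log2 ratio of -1.52. SWI4 to their shared partner SWI6 was 0.170, 0.219 and 0.222 in R256C and 0.443, 0.404 and 0.442 in WT (log2 difference -1.09). MBP1 to SWI6 moved the other way: it was 1.31, 1.31 and 1.34 in R256C and 0.915, 0.983 and 1.03 in WT (log2 difference 0.44). For each of these 3 ratios of subunit mRNAs, every R256C library lay outside the range of WT.

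CLN3 to WHI5, the activator and the inhibitor that meet at SBF, was 6.72, 5.14 and 5.10 in R256C and 3.38, 2.98 and 2.78 in WT (log2 difference 0.88). The summed SBF-driven cyclins CLN1 and CLN2 to CLN3 gave 1.22, 1.56 and 1.46 in R256C and 1.93, 2.54 and 2.18 in WT (log2 difference -0.65). Among relatives, CLN1 to CLN2 was 1.72, 1.96 and 1.78 in R256C and 1.47, 1.21 and 1.40 in WT (log2 difference 0.42). PCL1 to PCL2 was 2.92, 2.89 and 3.07 in R256C and 1.35, 1.90 and 1.63 in WT (log2 difference 0.88). For the inhibitors, NRM1 to WHI5 was 1.73, 1.87 and 1.44 in R256C and 2.60, 2.68 and 2.25 in WT (log2 difference -0.58).

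**Figure D4:**
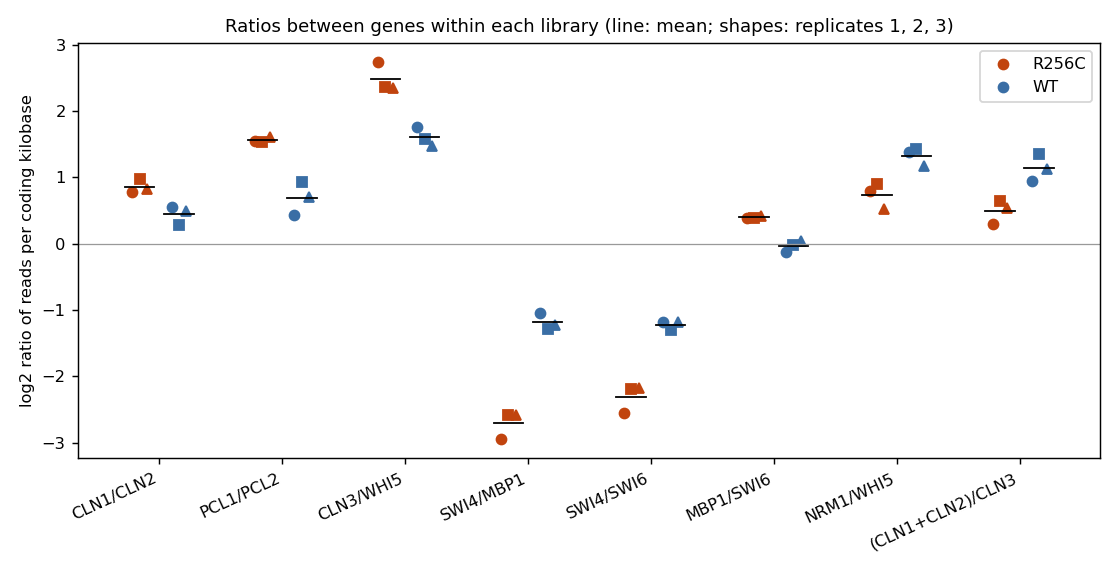
Log2 ratios of reads per coding kilobase between pairs of the genes in each library, R256C in orange and WT in blue; shapes are replicates 1, 2 and 3 and black lines are means. The strains do not overlap for any of the 8 ratios, and the widest gap is that of SWI4 to MBP1 (-1.52 between the means).

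Most of the listed genes known as targets of MBF were lower in R256C. Like the lists below, this list was chosen with earlier results of these data known, so its shares are descriptions. Of 37 such genes, most of them for DNA replication, repair and cohesion, 33 fell (89.2%, against 21.4% of all genes tested) and 4 did not pass; none rose with edgeR, DESeq2 or limma-voom, nor at an unadjusted p under 0.05 with edgeR (0 genes each), while 1 rose without WT replicate 2. The median log2 fold change was -0.95, and 17 fell by at least 2-fold, as did 2.82% of all genes. POL1, the catalytic subunit of DNA polymerase alpha, was at 59.8 ± 2.33 CPM in R256C and 242 ± 32.5 CPM in WT (SD, n = 3 each), a log2 fold change of -2.02 (SE 0.12; adjusted p by edgeR 1.9e-05). RNR1, the large subunit of ribonucleotide reductase (-1.77), the cohesin gene MCD1 (-1.60) and POL12 (-1.23), also of DNA polymerase alpha, fell as well. The 4 that did not pass, named after their values were seen, were PRI1 (-0.08), RFC4 (0.05), POL32 (0.11) and PRI2 (0.17). Relative to its mean over the 6 libraries, the median gene of the list lay at -0.53, -0.43 and -0.46 (log2) in R256C and at 0.48, 0.42 and 0.50 in WT, so WT replicate 2 lay with the other WT libraries.

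Of 26 genes known as SBF targets, many for the cell wall and budding and without the cyclins above, 9 fell, 3 rose and 14 did not pass (median log2 fold change -0.21). That is 34.6% lower and 11.5% higher, against 21.4% and 21.2% of all genes tested. The septin-associated kinase gene GIN4 was at 135.5 ± 11.9 CPM in R256C and 312 ± 19.6 CPM in WT (SD, n = 3 each), a log2 fold change of -1.20 (SE 0.10; adjusted p by edgeR 8.35e-05). AXL2 (-0.81), for axial bud site selection, the forkhead factor gene HCM1 (-1.03) and the cell wall protein gene TOS6 (-0.92) also fell. The genes that rose were the wall protein gene TOS1 (0.73), TOS8 (0.62), for a homeodomain protein, and CRH1 (0.44), a chitin transglycosylase. Without WT replicate 2, 7 rose and 12 fell, while 1875 rose and 1884 fell among all 6385 genes tested in that setting.

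Grouping all tested genes by letters in the window of 250 bases before to 50 after the start, and leaving out the 10 genes, gave the same quantities for genes chosen by sequence. The listed MBF and SBF targets stayed in, so these groups are not separate from the lists. Of 183 genes with MCB letters, 85 fell and 20 rose (46.4% and 10.9%; median log2 fold change -0.29), and of 21 with at least 2 MCB matches, 18 fell (median -0.94). Of 777 genes with SCB but no MCB letters, 219 fell and 117 rose (28.2% and 15.1%, median -0.09). Of 23 with ECB letters, 5 fell and 2 rose (median -0.09), but in the 600 bases before the start 12 of 62 such genes fell and 16 rose (19.4% and 25.8%, median 0.02). Of 4829 genes with neither SCB nor MCB letters, 1017 fell and 1045 rose (21.1% and 21.6%, median -0.01). In the 600 bases, 144 of 372 genes with MCB letters fell and 56 rose (38.7% and 15.1%, median -0.19), as did 343 and 244 of 1319 with SCB but no MCB letters (26.0% and 18.5%, median -0.06). In the window of 250 bases before to 50 after the start, MCB letters were present in 25 of the 37 listed MBF targets and 0 of the 26 SBF targets, against 3.07% of all promoters, and SCB letters in 12 and 10, against 13.8%. In the 600 bases, MCB letters were present before 29 MBF and 8 SBF targets, against 6.33% of genes, and SCB letters before 20 and 23, against 24.7%.

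Of 24 regulators that act on the cyclins and on Start, 8 rose, 8 fell and 8 did not pass (median log2 fold change -0.11). The share was 33.3% in each direction, in a table where 21.2% of genes rose and 21.4% fell. SRL3, also called WHI7 and known as an inhibitor of Start, was at 72.8 ± 0.592 CPM in R256C and 32.1 ± 5.30 CPM in WT (SD, n = 3 each), a log2 fold change of 1.18 (SE 0.12; adjusted p by edgeR 0.000221). MSA1 (0.82), whose product binds SBF and MBF, SIC1 (0.54), the inhibitor of S-phase cyclin kinase, and CDC34 (0.62), the ubiquitin-conjugating enzyme of the SCF ligase, rose too. Those that fell included CDC53 (-0.80), the cullin of SCF, and YDJ1 (-0.96), a chaperone that helps release Cln3 from the endoplasmic reticulum. PHO85 (-0.56), the kinase partner of Pcl1 and Pcl2, and WHI3 (-0.48), an RNA-binding protein that restrains CLN3 mRNA, fell as well.

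A list of 16 genes held those under ECB control or expressed between mitosis and G1, together with MCM1 itself. Of the 16, 3 rose, 5 fell and 8 did not pass (median -0.04), or 18.8% higher and 31.2% lower, against 21.2% and 21.4% of all genes. MCM1, the ECB-binding factor, was at 403 ± 41.3 CPM in R256C and 177 ± 5.86 CPM in WT (SD, n = 3 each), a log2 fold change of 1.19 (SE 0.11; adjusted p by edgeR 9.84e-05). ASH1 (1.31), a repressor of HO in daughter cells, and the cyclin gene PCL9 (0.46) also rose. YHP1 (-0.58), a repressor that acts at the ECB, CDC6 (-0.69) and MCM6 (-0.31) of replication origin licensing, and CTS1 (-0.43), a chitinase, were among those that fell. The number that fell was 1 without R256C replicate 3 or WT replicate 3, 2 without R256C replicate 1 and 3 without R256C replicate 2. Over all genes, 822 fell without R256C replicate 3, 861 without WT replicate 3, 959 without R256C replicate 1 and 858 without R256C replicate 2. With all 6 libraries, 1358 genes fell. Of the 8 other Pho85 cyclin genes, 3 rose, namely PCL5 (0.84), PHO80 (0.51), of phosphate signalling, and PCL9. PCL8 (-0.75) and PCL10 (-0.68), both of glycogen metabolism, and PCL6 (-0.32) fell, and the median was -0.10; with 8 genes, 37.5% in each direction stand against 21.2% and 21.4% of all genes.

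**Figure D5:**
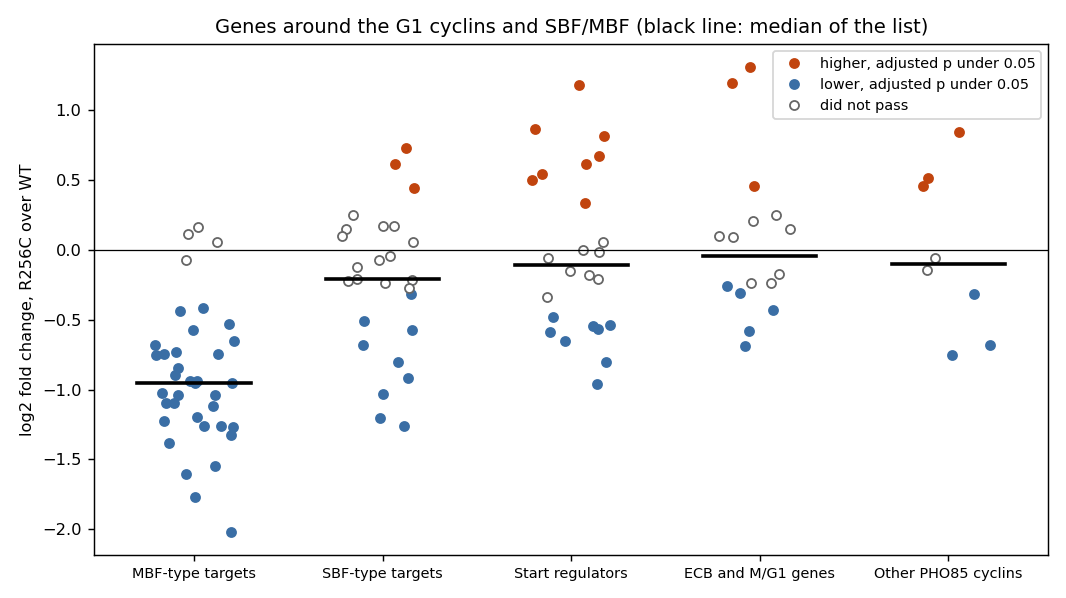
Log2 fold change of R256C over WT for each gene of 5 lists (points; filled where edgeR's adjusted p is under 0.05) with the median of each list as a black line. The MBF-type targets lie lowest, with a median of -0.95, and the other medians lie between -0.21 and -0.04.

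The genes whose level followed each of the 3 most changed of the 10 genes were found among 5498 with a mean of at least 10 CPM, by the Euclidean distance of log2 CPM, centred per gene, over the 6 libraries. Nearest to SWI4 were CEM1 (distance 0.189), a mitochondrial fatty acid synthesis gene, CTF18 (0.205), of sister chromatid cohesion, and the cohesin gene SMC1 (0.205). Nearest to CLN3 were the protease gene YPS3 (0.0896), MSA1 (0.103) and the phosphatase gene PTC6 (0.124). Nearest to NRM1 were the aldose reductase gene GRE3 (0.134), the polyphosphatase gene PPN1 (0.135) and RFS1 (0.136). The distances are descriptions, over the same 6 libraries as the changes above.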

How the data were processed

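The deposited table holds whole-number read counts per gene, not normalized, for 6 libraries, with the 5 summary rows of a counting program, which stayed out of library sizes and tests. TopHat, HTSeq, DESeq and the build R64 are named in the submitters' processing notes; versions, settings and use of strand were not stated there, so reads of overlapping genes on opposite strands may not be told apart. Per the labels' protocols, libraries were stranded and poly(A)-selected. Reads outside any gene were 3.99 to 4.07% of uniquely placed reads in R256C and 3.15 to 3.92% in WT, and ambiguous ones 7.43 to 7.67% and 7.45 to 8.13%. The row for alignments that were not unique held 55.4 to 57.2% of the table's total in R256C and 53.1 to 57.0% in WT.

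Identifiers were matched to the RefSeq R64 annotation (6048 of 7126 gene rows). Counts were filtered with filterByExpr (6337 genes), scaled with TMM and tested in edgeR 4.0.16 (R 4.3.3) by the quasi-likelihood F test over all 6 libraries, with Benjamini-Hochberg adjustment over all genes tested; DESeq2 1.42.0 and limma 3.58.1 (voom) were alternatives. SE was taken as the size of the log2 fold change over the square root of F. No pair of libraries agreed within sampling noise. Nothing beyond the labels says how the cultures were kept separate. The scripts were tested on simulated counts. The 10 genes and the gene lists were chosen with earlier results of these data known; named list genes were the 4 called genes with the smallest p in each direction. Values of 1 list gene and matches to 1 further motif are not reported here. Lists were described by counts and medians and had no set test. Promoters were read from the R64 genome, since gene starts there are start codons. The window from 250 bases before to 50 after the start was chosen first, and 600 bases before the start was read as well.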

Additional observations from a re-analysis of the deposited data

How the results depend on the processing

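The directions of CLN1, CLN3, PCL1, PCL2, SWI4, SWI6, MBP1 and NRM1 were the same in all alternatives run, and CLN3, SWI4, NRM1 and PCL2 passed in all of them. Left-out libraries gave log2 fold changes of 0.73 to 0.87 for CLN3, -1.43 to -1.22 for SWI4, -0.74 to -0.60 for NRM1 and -0.74 to -0.51 for PCL2. CLN2 (0.0095) and WHI5 (0.022) were reversed with library totals alone, and WHI5 (0.016) without WT replicate 3, its range over left-out libraries being -0.14 to 0.016; neither passed there. With one library left out, 1 to 4 of the 10 genes rose, 3 to 4 fell, 876 to 1875 of all genes rose and 822 to 1884 fell, and 2 to 7 SBF targets and 0 to 1 MBF targets rose, while 32 to 33 MBF targets and 1 to 6 ECB or M/G1 genes fell.

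The replicate numbers are shared between strains, but same-numbered libraries did not deviate together (correlations -0.12, -0.07 and -0.06). With a replicate block, 1217 genes rose and 1214 fell, PCL1 did not pass (adjusted p = 0.0745) and 3 ECB or M/G1 genes fell. With the block and coding length offsets, 1 of the 10 genes rose, CLN1 (0.0551) and PCL1 (0.0540) not passing, and 5 ECB or M/G1 genes rose and 2 fell; with the length offsets alone 5 rose and 3 fell. With library totals alone, 1639 genes rose and 886 fell (64.9% of calls higher, against 49.8%), the median log2 fold change of all genes was 0.09, and 2 ECB or M/G1 genes fell. In the 600 bases before the start, 5 of the 10 genes had SCB letters, 1 MCB and 2 ECB, against 0, 0 and 0 in the window of 250 before to 50 after. The cause of these differences was not tested. Only 3 libraries per strain limit the tests of ratios.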
